A study of Drosophila melanogaster with 8 samples.

Results

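The comparison described here is that of ZT14 with ZT2 in the pan-neuronal pool, 2 nSyb > EGFP libraries against 2, which are 4 of the 8 libraries of the series. All genes in the deposited count tables entered the comparison, 17868 in each library, apart from the summary rows for reads that were not assigned to a gene. The neurons were labeled with EGFP under the nSyb-GAL4 driver, which is active in neurons of all kinds, in male flies about 2 weeks old that were kept in a 12:12 light-dark cycle, and ZT0 is lights-on. Both nSyb groups, ZT14 in the early night and ZT2 in the early morning, have this genotype, and neither received a treatment. The other 4 libraries are clock neurons (clk856 > EGFP) sorted at the same times, 2 at ZT14 and 2 at ZT2, and they are used below only where the nSyb pool is set against them. Brains were dissociated, EGFP-positive cells were collected by FACS, and SMART-seq2 cDNA was sequenced, with more cells but fewer brains per nSyb library than per clk856 library.

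The way the pool was made limits it as a model. A library is a small sample drawn from all neurons of the brain, so that rare neuron classes can contribute few cells or none, and in such bulk RNA fewer cells of a class cannot be told apart from less RNA per cell. The methods state that more than one set of neurons was collected from each dissociated sample, without saying whether R1 and R2 came from the same one. The p-values then measure only the spread between these libraries, which may be technical.

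The circadian clock of the fly is a transcriptional feedback loop. The activators CLK and CYC drive per and tim in the evening, and PER and TIM then enter the nucleus and shut their own transcription off. CLK and CYC also drive vri, Pdp1 and cwo, whose products feed back on the loop. The loop runs in a small group of brain clock neurons, in glia and in photoreceptors, but not in most other neurons, which receive time of day through light, activity, sleep and signals from the clock network. Activity-regulated genes such as Hr38 are induced in neurons that have fired, and ZT14 falls in the early hours of night sleep.

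The 4 libraries were of similar depth. Reads on genes numbered between 7970236 and 8403291 in the ZT14 libraries and between 8077198 and 8449829 in the ZT2 libraries, and between 7937 and 8400 genes had at least 1 read. Levels are given below as CPM, the reads of a gene per 1000000 reads on genes in that library, and 1 CPM is therefore about 8 reads. The 8 neuronal markers, including nSyb and elav, summed to 10388 and 10358 CPM at ZT14 and to 9986 and 10890 CPM at ZT2. All 5 muscle markers were at or under 3 reads in each library, as were ninaE and 4 other photoreceptor markers of 9, while norpA carried nearly all of the photoreceptor sum. That sum was 590 and 575 CPM at ZT14 and 674 and 639 CPM at ZT2, without overlap, and its part in the results was not tested. The 8 glial markers summed to 376 and 308 CPM at ZT14 and to 164 and 428 CPM at ZT2, and repo, the defining glial factor, had reads in 1 library, ZT14 R2 (14.04 CPM). The 4 fat body markers summed to between 114 and 141 CPM at ZT14 and between 99.5 and 124 CPM at ZT2. Of these 4, the genes Lsp2 and to were at or under 3 reads in each library. The 4 hemocyte markers summed to between 184 and 276 CPM at ZT14 and between 184 and 337 CPM at ZT2. That sum rests on Pxn, as Hml, NimC1 and srp were at or under 3 reads in each library.

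No gene differed between ZT14 and ZT2 at the threshold of the edgeR quasi-likelihood test. Of 7671 genes tested, 0 had a Benjamini-Hochberg adjusted p below 0.05 (0%), and the lowest adjusted p was 0.9999. The unadjusted p was below 0.05 for 303 genes (3.95%), 173 higher at ZT14 (2.26%) and 130 lower (1.69%). The fold changes were balanced, with 3786 genes higher at ZT14 and 3885 lower and a median log2 fold change of -0.01. The likelihood ratio test of edgeR called 6 genes and its exact test 2, while DESeq2 called 224 genes, 133 higher at ZT14 and 91 lower, of which 125 were at or under 3 reads in both libraries of one time point. Without ZT14 R1 the quasi-likelihood test called 1 gene, Dh44, where ZT14 is the single library R2 and the spread is that of the ZT2 pair alone. Both ZT14 libraries lay above both ZT2 libraries for 1296 genes (16.9%) and below them for 1202 (15.7%), 32.6% in all.

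**Figure D1:**
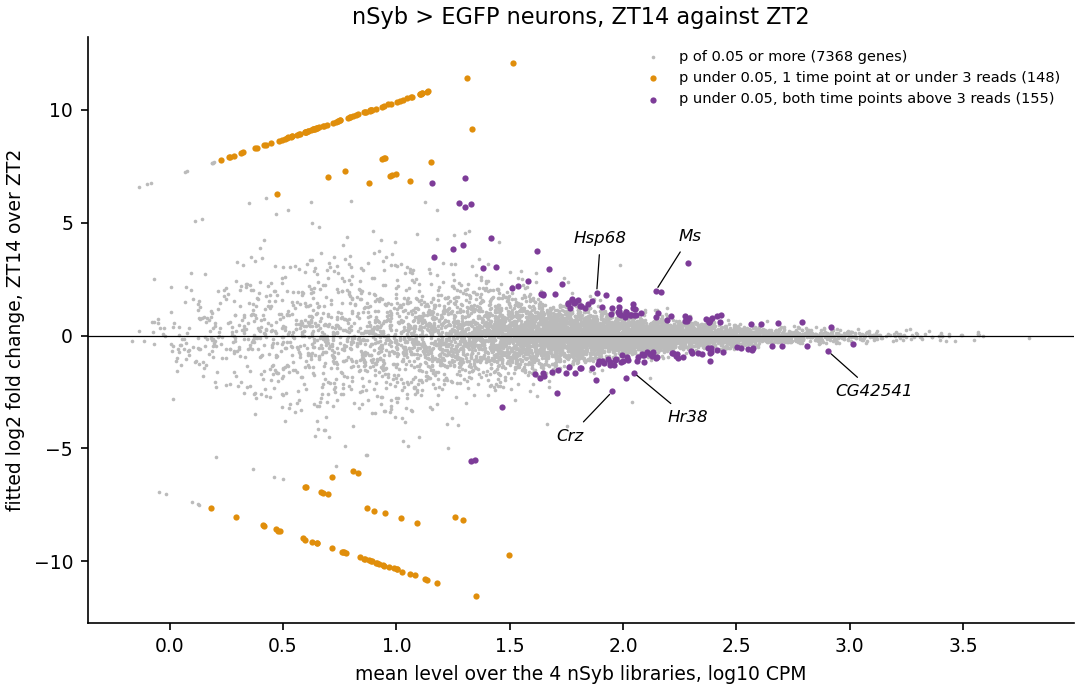
Fitted log2 fold change (ZT14 over ZT2) against mean level (log10 CPM over the 4 nSyb libraries) for the 7671 genes tested, 1 point a gene. The 148 genes in orange have an unadjusted p under 0.05 and at most 3 reads in each library of one time point, and form the 2 slanting lines at left, while the 155 in purple are above 3 reads at both times and hug the edge of a cloud that narrows as the level goes up.

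Many of the genes of lowest p were read at one time point only. Of the 303 genes with an unadjusted p under 0.05, 148 were at or under 3 reads in both libraries of ZT14 or of ZT2, including all 116 of them with a mean under 10 CPM. Among the genes tested, 65 were at or under 3 reads at ZT14 only and 110 at ZT2 only. For such genes the fitted fold change depends on the prior count, so that only a lower bound against 3 reads per library is given here.

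SCOT, which encodes a mitochondrial enzyme of ketone body use, had 37.5 and 48.6 CPM at ZT14, against 0.124 and 0 CPM at ZT2, and was at least 118-fold higher at ZT14. It lies on chromosome arm 3L (dm6, 1963143 to 1966805, plus strand), and 18.3% of its exon bases are shared with another gene. In clk856 neurons SCOT was at 33.5 and 19.6 CPM at ZT14, against 36.3 and 18.0 CPM at ZT2, so that it was present at both times there. GlnRS, the glutaminyl-tRNA synthetase, had 10.8 and 71.5 CPM at ZT14 and 0 reads in both ZT2 libraries. By the mean it was at least 113-fold higher at ZT14, a bound that rests mainly on R2. TyrRII, a tyramine receptor, had 12.3 and 42.1 CPM at ZT14, against 0 reads at ZT2 (at least 74.9-fold higher at ZT14). The 6 further genes of lowest p on this side other than Hsp68 and Ms were CG2662 (Lint-O), Est-Q, CG31370, Top3alpha, CG15082 and Naam, each with 0 CPM in both ZT2 libraries and with lower bounds between 70.0-fold (Naam) and 180-fold (CG15082). CG15082 had 125 and 5.95 CPM at ZT14, so that its bound rests mainly on R1.

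On the other side, Ugt35B1, a UDP-glycosyltransferase of detoxification, had 0.125 and 0 CPM at ZT14, against 28.1 and 97.99 CPM at ZT2, and was at least 172-fold lower at ZT14. It has the lowest unadjusted p of all genes (0.00122, edgeR quasi-likelihood test, adjusted p 0.9999), and its gene is on 3R (dm6, 11168503 to 11170246, minus strand). CG13775 had 0 reads at ZT14, against 34.2 and 56.1 CPM at ZT2 (at least 123-fold lower). The cytochrome P450 gene Cyp6d5, the ceramidase gene CDase, the zinc transporter gene Zip48C and CG12698 had at most 0.251 CPM at ZT14, against between 12.3 and 48.4 CPM at ZT2. These genes sit at a level at which, as given below, 1 of 2 replicates of a time point could also be at 0.

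Among genes read at both time points, 80 were higher and 75 lower at ZT14 with an unadjusted p under 0.05, with median log2 fold changes of 1.27 and -0.99. The heat shock gene Hsp68 had 127 and 114 CPM at ZT14, against 32.6 and 32.3 CPM at ZT2. The 2 libraries of a time point lay close together and the time points did not overlap. The log2 fold change was 1.88 ± 0.40 (SE; 95% interval 0.91 to 2.86), a 3.72-fold ratio of the mean CPM. Hsp68 lies on 3R (dm6, 24055080 to 24057310, minus strand). Over the 4 nSyb libraries it was not called by the quasi-likelihood, likelihood ratio or exact test of edgeR, and it was called by DESeq2 (adjusted p 6.03e-07) and when the spread was estimated over all 8 libraries with edgeR (adjusted p 0.0328).

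Hsp68 also differed in its time effect between the nSyb pool and clock neurons. In clk856 neurons the order was the opposite, with 347 and 407 CPM at ZT14 and 747 and 865 CPM at ZT2. That log2 fold change of -1.11 was not called on its own (adjusted p 0.24, edgeR quasi-likelihood test). The difference of the time effects, nSyb minus clk856, was 3.01 ± 0.23 (SE) on the log2 scale with an adjusted p of 0.0119 (edgeR interaction test over 8 libraries). Hsp68 was the only gene called of 8926 tested (0.0112%), where 581 genes had an unadjusted p under 0.05. It was not called with the replicate number as a block (adjusted p 0.159, edgeR). The call was lost without clk856 ZT2 R1 (adjusted p 0.0616), clk856 ZT2 R2 (0.124) or clk856 ZT14 R1 (0.0843), while the difference was between 2.89 and 3.12 without any 1 of the 8 libraries. The number of calls depended on the libraries and the test, with 85 without nSyb ZT2 R2, 178 with DESeq2, 85 with the edgeR likelihood ratio test, and 98 without the filter on low counts.

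Other chaperones were less far apart. Of 19 heat shock and chaperone genes tested, Hsp68 among them, 14 were higher and 5 lower at ZT14. The median log2 fold change was 0.25, against -0.01 over all genes. Both ZT14 libraries lay above both ZT2 libraries for 8 of the 19, Hsp68 included, against 16.9% of all genes. Hsp26, a small heat shock protein gene, had 238 and 390 CPM at ZT14, against 186 and 176 CPM at ZT2 (log2 fold change 0.79 ± 0.29). The constitutive Hsc70-4 had 1835 and 2016 CPM at ZT14, against 1570 and 1646 CPM at ZT2 (0.25 ± 0.12), and the Hsp90 gene Hsp83 had 2271 and 1801 CPM at ZT14, against 1670 and 1662 CPM at ZT2 (0.28 ± 0.14). In these 3 genes every ZT14 library was above every ZT2 library. The Hsp70 copies are near-identical and their reads cannot be assigned with certainty. The copies Hsp70Aa, Hsp70Ab and Hsp70Ba are among the 8 genes without overlap, and had at most 11.5 CPM in any nSyb library. The most abundant copy, Hsp70Bb, was at 50.1 and 40.2 CPM at ZT14 and at 42.6 and 31.6 CPM at ZT2.

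Hr38 was the activity-regulated gene with the lowest p. It encodes the only fly member of the NR4A nuclear receptors and is induced by neuronal firing. It had 48.7 and 59.5 CPM at ZT14, against 190 and 148 CPM at ZT2, without overlap. The log2 fold change was -1.65 ± 0.34 (95% interval -2.49 to -0.80). The gene spans 20683462 to 20714588 on the minus strand of 2L (dm6). The kinase gene meng had 60.6 and 93.1 CPM at ZT14, against 169 and 173 CPM at ZT2 (-1.16 ± 0.35). Of 13 activity-regulated genes tested, 4 were higher and 9 lower at ZT14, and Hr38 and meng were the 2 with an unadjusted p under 0.05, against 3.95% of all genes.

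Among the 13, 1 gene was higher at ZT14 without overlap and 4 were lower, against 16.9% and 15.7% of all genes. The 1 higher without overlap was CG8910, with 90.0 and 132 CPM at ZT14, against 78.9 and 49.0 CPM at ZT2 (0.79 ± 0.43). The highest log2 fold change of the list was 0.84. The EGR family gene sr was at 16.1 and 26.3 CPM at ZT14, against 25.8 and 49.6 CPM at ZT2. The Fos gene kay was at 60.1 and 60.9 CPM at ZT14, against 89.0 and 70.7 CPM at ZT2 (-0.41 ± 0.41). CG46385 had 132 and 125 CPM at ZT14, against 151 and 229 CPM at ZT2 (-0.58 ± 0.32), and CG13868, the most abundant member, had 238 and 270 CPM at ZT14, against 252 and 224 CPM at ZT2. The median log2 fold change of the list was -0.22, against -0.01 over all genes. In clk856 neurons Hr38 had 64.6 and 91.5 CPM at ZT14, against 47.5 and 16.2 CPM at ZT2, and the difference of its time effects did not pass the interaction test (adjusted p 0.561, edgeR).

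Several other well-read genes were of low p. Pgant1, a glycosyltransferase that starts mucin-type O-glycosylation, had 36.9 and 25.9 CPM at ZT14, against 121 and 121 CPM at ZT2 (-1.95 ± 0.42). CG42541 had 588 and 647 CPM at ZT14, against 925 and 1052 CPM at ZT2. Its log2 fold change of -0.69 ± 0.16 was small, but at this level the interval was narrow (-1.08 to -0.30). The homeobox gene Lim1 had 141 and 120 CPM at ZT14, against 69.5 and 75.6 CPM at ZT2 (0.84 ± 0.34). Oamb, an octopamine receptor, had 106 and 126 CPM at ZT14, against 63.3 and 57.4 CPM at ZT2 (0.94 ± 0.37).

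**Figure D2:**
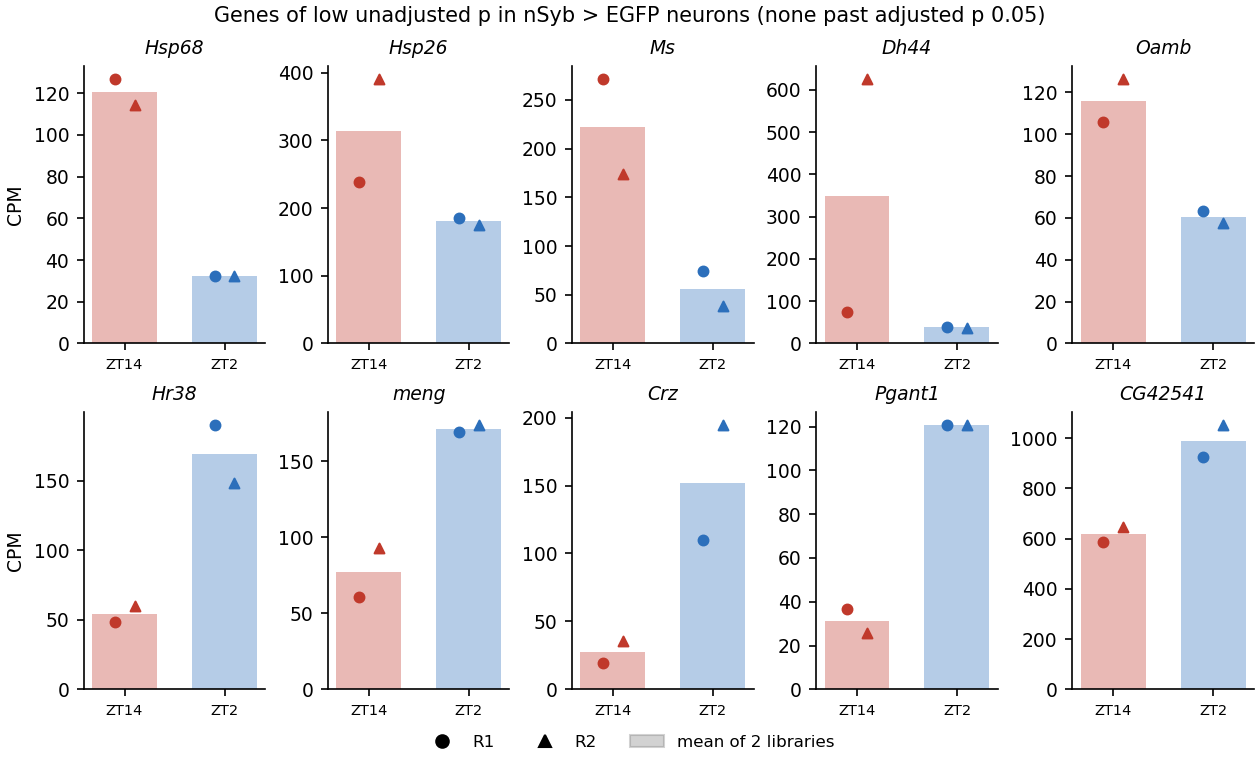
CPM of 10 genes with an unadjusted p under 0.05 in the 2 ZT14 libraries (red) and the 2 ZT2 libraries (blue) of nSyb > EGFP neurons, where circles are R1, triangles are R2 and bars are the mean of the 2. The upper row is higher at ZT14 and the lower row higher at ZT2, each without overlap, and Dh44 owes its ZT14 mean to R2 (625 CPM).

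Neuropeptide precursors, many of them made by small groups of neurons, gave no call in the quasi-likelihood test and had wide replicate spread. Of 41 precursors, 21 passed the filter on low counts, 11 higher and 10 lower at ZT14. Without overlap, 5 were higher and 2 lower, against 16.9% and 15.7% of all genes. An unadjusted p under 0.05 was found for 5 of the 21, against 3.95% of all genes. Ms, the precursor of myosuppressin, had 271 and 174 CPM at ZT14, against 74.7 and 38.0 CPM at ZT2 (1.98 ± 0.44). Tk, the tachykinin precursor, had 582 and 568 CPM at ZT14, against 372 and 407 CPM at ZT2 (0.55 ± 0.17). Proc, the proctolin precursor, had 117 and 350 CPM at ZT14, against 74.7 and 46.7 CPM at ZT2 (1.95 ± 0.58).

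Dh44, a relative of corticotropin-releasing factor, had 73.4 and 625 CPM at ZT14, against 39.4 and 36.6 CPM at ZT2. The replicates of ZT14 were farther apart than R1 was from ZT2, and the log2 fold change was 3.20 ± 0.95. Without ZT14 R1 its adjusted p was 0.00584 (edgeR), which assumes that the lone library R2, the high one, varies like the ZT2 pair. The lower one was Crz, the precursor of corazonin, a peptide of stress and metabolism, with 19.6 and 35.7 CPM at ZT14 and 110 and 194 CPM at ZT2 (-2.48 ± 0.53). The median log2 fold change of the 21 precursors was 0.28.

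Of the core clock genes, Clk, per, tim, vri and cry were at low levels in this pool, with means of at most 31.8 CPM. The genes cyc, cwo and Pdp1 were higher. Clk, the activator, had 0 and 1 reads at ZT14 and 2 and 0 reads at ZT2, and was not tested. Its partner cyc had 99.9 and 122 CPM at ZT14, against 42.3 and 68.4 CPM at ZT2, without overlap, a log2 fold change of 0.99 ± 0.44 (95% interval -0.09 to 2.06). tim had 6.27 and 53.0 CPM at ZT14, against 8.54 and 17.8 CPM at ZT2. ZT14 R2 was thus above both ZT2 libraries and ZT14 R1 below both, and the interval of the log2 fold change was -2.22 to 4.53 around 1.16.

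The partner of tim, per, had 9.91 and 6.78 CPM at ZT14, within the 27.4 and 2.13 CPM of ZT2 (-0.81 ± 1.68). vri, a repressor of Clk, had 0.125 and 7.14 CPM at ZT14 and 0.124 and 1.30 CPM at ZT2. cwo, a repressor that competes with CLK and CYC at their sites, had 83.3 and 52.8 CPM at ZT14, against 23.5 and 45.2 CPM at ZT2 (0.97 ± 0.63). cry, the blue light receptor of clock neurons, had 8.41 and 50.3 CPM at ZT14 and 41.8 and 26.6 CPM at ZT2. tim and cry share 9.89% and 17.8% of their exon bases with another gene.

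Pdp1 stood apart by its level. It encodes a transcription factor that activates Clk and is also expressed in other tissues. It had 660 and 754 CPM at ZT14, against 734 and 815 CPM at ZT2, and its log2 fold change of -0.14 had an interval of -0.54 to 0.26. In all, 0 of the 7 core clock genes tested had an unadjusted p under 0.05, against 3.95% of all genes. Of the 7, 2, cyc and cwo, did not overlap between the time points, against 32.6% of all genes. The quasi-likelihood test gave no adjusted p under 0.05 in the list.

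The same genes set the scale in clk856 neurons. There tim had 1044 and 1128 CPM at ZT14, against 37.3 and 59.9 CPM at ZT2, and vri had 582 and 530 CPM at ZT14, against 45.1 and 44.4 CPM at ZT2. These 2 were the genes called between ZT14 and ZT2 in clk856 neurons, of 8188 tested (0.0244%). The time effects of tim in the 2 pools differed by -3.30 ± 1.13 (nSyb minus clk856) with an adjusted p of 0.746 in the edgeR interaction test, and those of vri by -1.31 ± 1.67 (0.993). Without the filter on low counts that test gave an adjusted p of 9.29e-20 for tim (difference -3.32) and of 0.474 for vri. The difference for tim was nearly the same in both fits, so that its adjusted p depends on which genes enter the fit. The nSyb ZT14 libraries of tim, at 6.27 and 53.0 CPM, were far apart in either case. Pdp1 had 2388 and 2388 CPM at ZT14 in clk856 neurons, against 1250 and 1315 CPM at ZT2, and the difference of its time effects was -1.01 (adjusted p 0.316, edgeR quasi-likelihood test). For Pdp1 the difference did pass without the filter (adjusted p 0.00474, edgeR), with the edgeR likelihood ratio test (0.0242) and with DESeq2 (7.02e-07).

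**Figure D3:**
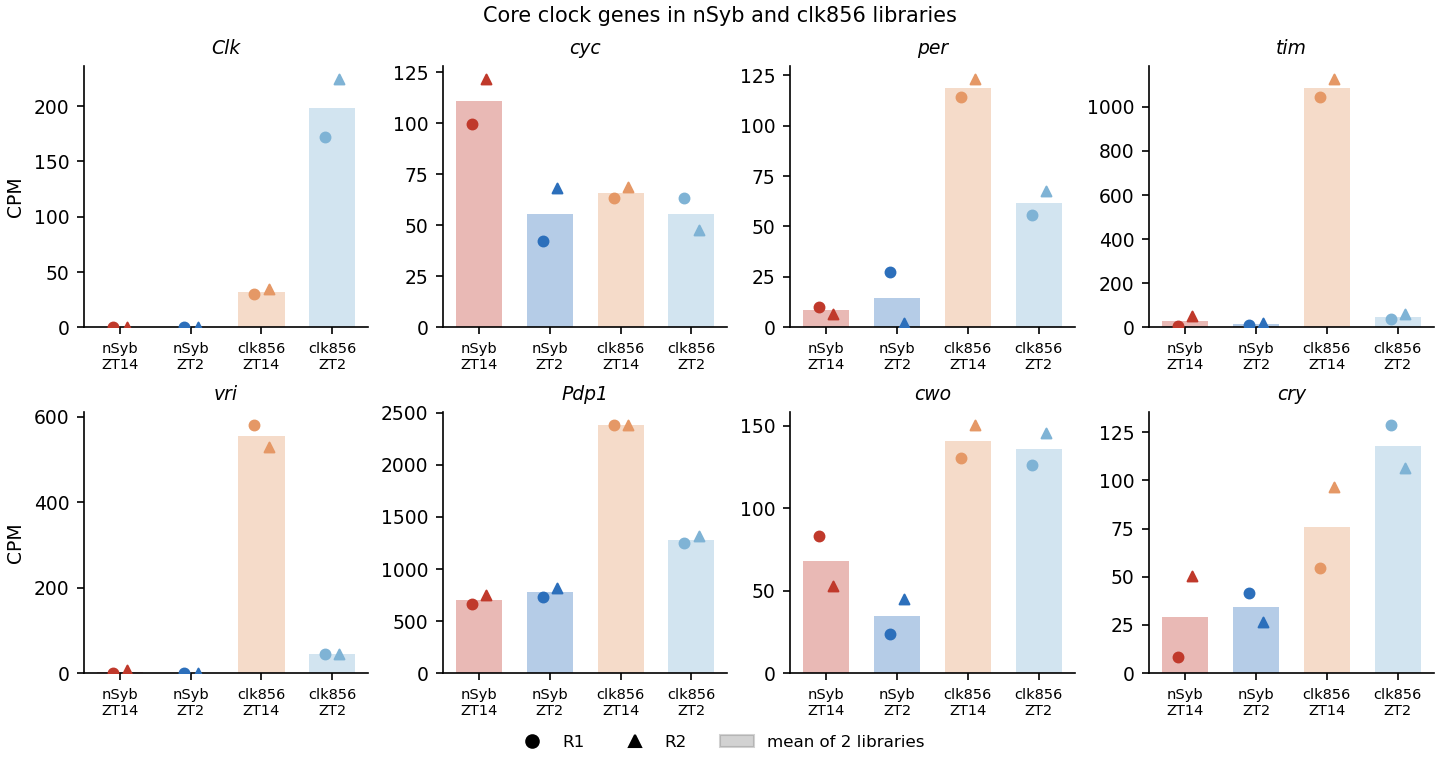
CPM of 8 core clock genes in nSyb libraries at ZT14 (red) and ZT2 (blue) and in clk856 libraries at ZT14 (orange) and ZT2 (light blue), where circles are R1, triangles are R2 and bars are the mean of the 2. In nSyb libraries only cyc and cwo do not overlap between the times, and tim and vri reach at most 53.0 and 7.14 CPM, against 1128 and 582 CPM in clk856 libraries at ZT14.

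Genes that act on the clock proteins or follow the clock in heads gave no call in the quasi-likelihood test. The 12 genes for clock kinases, phosphatases and the TIM ubiquitin ligase had log2 fold changes between -0.67 and 0.40. The lowest of these was jet, which encodes the F-box protein that targets TIM for degradation in light, with 80.3 and 60.7 CPM at ZT14, against 139 and 84.6 CPM at ZT2. CkIIalpha, the catalytic subunit of casein kinase II, had 512 and 371 CPM at ZT14, against 530 and 525 CPM at ZT2, and the phosphatase gene mts had 738 and 798 CPM at ZT14, against 768 and 719 CPM at ZT2. Of 10 genes on a list of transcripts that cycle in fly heads, 4 were read well enough to be tested, among them Ugt35B1 above and Slob, a potassium channel binding protein gene, with 228 and 239 CPM at ZT14, against 207 and 275 CPM at ZT2. Ugt35B1 was called by the likelihood ratio test (adjusted p 0.000981) and the exact test (0.00389) of edgeR and by DESeq2 (4.85e-06).

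Of 22 sleep genes tested, 7 were higher and 15 lower at ZT14, and the median log2 fold change was -0.15. An unadjusted p under 0.05 was found for 0 of them, against 3.95% of all genes. The time points did not overlap for 2 that were higher and 3 that were lower at ZT14, against 16.9% and 15.7% of all genes. wake, a clock output gene that promotes sleep onset, had 124 and 51.6 CPM at ZT14, against 158 and 180 CPM at ZT2 (-0.96 ± 0.47). AstA-R1, a receptor for allatostatin A, had 152 and 119 CPM at ZT14, against 38.6 and 92.7 CPM at ZT2 (1.02 ± 0.51). The potassium channel gene Sh, the most abundant member, had 2950 and 2478 CPM at ZT14, against 2474 and 3056 CPM at ZT2, an interval of -0.43 to 0.35.

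Of 17 receptors of dopamine, serotonin, octopamine and tyramine tested, 7 were higher and 10 lower at ZT14. Oamb and TyrRII, described above, were the 2 with an unadjusted p under 0.05, against 3.95% of all genes, and the median SE of the log2 fold changes was 0.52. DopEcR, a receptor for dopamine and ecdysone, was the most abundant with 1004 and 942 CPM at ZT14, against 751 and 814 CPM at ZT2 (0.30 ± 0.14). The dopamine receptor gene Dop1R1 had 404 and 379 CPM at ZT14, against 493 and 400 CPM at ZT2.

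Genes of general neuronal function were measured more tightly. The 20 genes of synaptic vesicle machinery had log2 fold changes between -0.32 and 0.34, and the 9 nicotinic receptor subunits between -0.33 and 0.20. In both lists 0 genes had an unadjusted p under 0.05, against 3.95% of all genes. Among vesicle genes the largest differences were in Syx1A, a SNARE protein gene, with 872 and 862 CPM at ZT14, against 631 and 726 CPM at ZT2, and in Syt7, with 827 and 733 CPM at ZT14, against 966 and 970 CPM at ZT2. The complexin gene cpx had 3532 and 4004 CPM at ZT14, against 3554 and 3625 CPM at ZT2, an interval of -0.21 to 0.33. Of 22 ion channel genes, 15 were higher and 7 lower with a median log2 fold change of 0.04.

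Of 84 cytosolic ribosomal protein genes, 23 were higher and 61 lower at ZT14, and the median log2 fold change was -0.09. Among them 0 had an unadjusted p under 0.05, against 3.95% of all genes. RpL5 was the most abundant of them with 888 and 709 CPM at ZT14, against 919 and 924 CPM at ZT2. Of 61 nuclear genes of the respiratory chain, 35 were higher and 26 lower with a median of 0.04, and of 17 vacuolar ATPase genes, 12 were higher and 5 lower with a median of 0.08. COX4L, a cytochrome c oxidase subunit gene, was the 1 of the 61 with an unadjusted p under 0.05, against 3.95% of all genes. It had 14.4 and 1.55 CPM at ZT14 and 0 reads in both ZT2 libraries. By the mean it was at least 21.99-fold higher at ZT14, a bound that rests mainly on R1. Of 31 proteasome genes 2 had an unadjusted p under 0.05, against 3.95% of all genes. Rpn3 had 80.8 and 61.4 CPM at ZT14, against 121 and 154 CPM at ZT2 (-0.97 ± 0.36), and Rpn10 had 226 and 233 CPM at ZT14, against 132 and 162 CPM at ZT2 (0.63 ± 0.25).

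Insulin and nutrient signaling had 12 genes tested, 5 higher and 7 lower. The insulin receptor gene InR had 52.4 and 50.9 CPM at ZT14, against 104 and 93.0 CPM at ZT2 (-0.94 ± 0.39), and the kinase gene S6k had 242 and 101 CPM at ZT14, against 84.8 and 72.8 CPM at ZT2 (1.11 ± 0.47). Of 17 antimicrobial peptide genes, 1 was read well enough to be tested. Of 13 ecdysone response genes, 5 were higher and 8 lower, and Eip75B, which encodes a nuclear receptor, had 519 and 469 CPM at ZT14, against 507 and 623 CPM at ZT2.

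The most abundant RNAs marked how small a difference could be seen. The nuclear non-coding RNA lncRNA:Hsromega had 5759 and 6119 CPM at ZT14, against 6518 and 6316 CPM at ZT2, and lncRNA:roX1, the dosage compensation RNA of males, had 4080 and 3459 CPM at ZT14, against 3441 and 3834 CPM at ZT2. The sodium pump gene Atpalpha had 3864 and 3733 CPM at ZT14, against 3487 and 3714 CPM at ZT2, with an interval of -0.18 to 0.31. All 7 housekeeping genes were higher at ZT14 by a log2 fold change of at most 0.51, and Gapdh2 had 1703 and 1710 CPM at ZT14, against 1693 and 1562 CPM at ZT2.

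How far replicate spread limits these differences was read from the library pairs. Over 6602 genes with a mean of at least 10 CPM, the median absolute log2 difference was 0.42 between the ZT14 libraries and 0.53 between the ZT2 libraries, while the 4 pairs of 1 ZT14 and 1 ZT2 library had medians between 0.44 and 0.50. Libraries of different times were thus as far apart as libraries of the same time. More than 2-fold differences were found for 21.1% of genes between the ZT14 libraries, for 27.7% between the ZT2 libraries, and for 21.7% to 26.1% across times.

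In clk856 neurons the same medians were 0.22 at ZT14, 0.31 at ZT2 and 0.27 to 0.32 across times, over 6619 genes. The chi-square per degree of freedom between replicate libraries was 71.4 at ZT14 and 96.0 at ZT2 in nSyb, and 20.1 at ZT14 and 32.2 at ZT2 in clk856, so that no pair of libraries agreed within counting error. The biological coefficient of variation is the spread between replicates beyond counting error as a share of the mean. It was 0.741 in nSyb and 0.319 in clk856 on the 7290 genes tested in both pools, and 0.795 over the 7671 nSyb genes. The nSyb value was lower with at least 10 reads in every library, as given below, a setting not calculated for clk856. Fewer genes were detected per nSyb library (between 7937 and 8400) than per clk856 library (between 8939 and 9991), at gene reads between 7970236 and 8449829 and between 4823985 and 8439193.

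**Figure D4:**
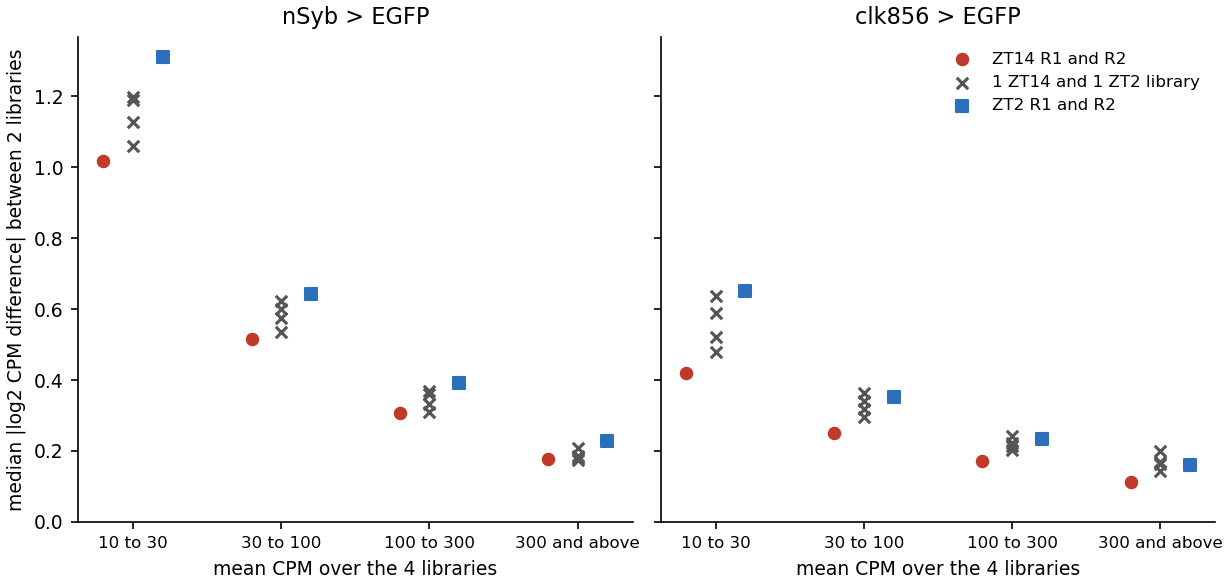
Median absolute log2 CPM difference between 2 libraries, by mean level, for the ZT14 replicates (red circles), the 4 pairs across times (crosses) and the ZT2 replicates (blue squares), with nSyb at left and clk856 at right. In nSyb the pairs across times lie between the same-time pairs below 300 CPM, and all differences are larger than in clk856 for genes under 300 CPM.

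The spread depended on the level. Between 10 and 30 CPM the ZT14 replicates differed by a median of 1.02 on the log2 scale and the ZT2 replicates by 1.31, and at 300 CPM and above by 0.18 and 0.23. The half-width of the 95% interval of the log2 fold change had a median of 3.41 between 10 and 30 CPM, 1.48 between 30 and 100 CPM, 0.78 between 100 and 300 CPM and 0.47 above that. An interval within 2-fold in either direction was reached by 0 of 1246 genes between 10 and 30 CPM, 40 of 2760 between 30 and 100 CPM, 787 of 1830 between 100 and 300 CPM (43.0%) and 695 of 729 at 300 CPM and above (95.3%). Over all genes with an interval it was reached by 1522 of 7496 (20.3%).

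The spread took the form of 0 reads in one library as well as of scatter. Of the 6602 genes with a mean of at least 10 CPM, 6238 (94.5%) had reads in all 4 libraries, 307 in 3, 55 in 2 and 2 in 1, whereas 6589 of 6619 (99.5%) had reads in all 4 in clk856. A gene had at least 50 CPM in one library and 0 reads in its replicate in 32 cases, 8 at ZT14 and 24 at ZT2, and in 6 cases in clk856. Hakai, a ubiquitin ligase gene, had 0 and 51.9 CPM at ZT14 and 75.5 and 73.5 CPM at ZT2. Plp, a centrosome gene, had 58.2 and 130 CPM at ZT14 and 0 and 31.4 CPM at ZT2, and mrn, a subunit gene of the transcription factor TFIIH, had 49.4 and 50.8 CPM at ZT14 and 131 and 0.828 CPM at ZT2.

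Rnmt, the mRNA cap methyltransferase gene, had 0.753 and 88.2 CPM at ZT14 and 89.8 and 82.0 CPM at ZT2. In each of these 4 genes 1 library of 4 stood apart. The same held for CG9272, amx and CG32100 at ZT2 and for CG15141 and CG13229 at ZT14, where 1 library was at or under 0.878 CPM and its replicate at 71.2 CPM or more. The library at the bottom was ZT2 R1 for CG9272, amx and Plp, ZT2 R2 for CG32100 and mrn, and ZT14 R1 for Hakai, CG15141, CG13229 and Rnmt.

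Some genes of monoamine neurons, named here after their values were seen, differed widely between replicates. Of 13 transmitter identity genes tested, 5 differed more than 2-fold between replicates of ZT14 or ZT2 (38.5%), against 45.2% of all genes. The 5 are ple, DAT, Vmat, Trh and SerT, described below. ple (tyrosine hydroxylase), DAT (the dopamine transporter) and Vmat (the vesicular transporter of all monoamine neurons) had their highest level in ZT14 R1, with 273, 445 and 793 CPM, and their lowest in its replicate ZT14 R2, with 43.8, 65.8 and 69.7 CPM. Both ZT2 libraries lay between them, at 89.6 and 150 CPM for ple, 110 and 169 CPM for DAT and 290 and 402 CPM for Vmat. The log2 fold changes were 0.38 ± 0.81, 0.85 ± 0.81 and 0.30 ± 0.95. Ddc, the decarboxylase of dopamine and serotonin synthesis, did not share this order, with 1110 and 1061 CPM at ZT14, against 1009 and 1052 CPM at ZT2.

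Trh and SerT had another library at the top. Trh (tryptophan hydroxylase) had 20.6 and 30.3 CPM at ZT14, against 0.124 and 386 CPM at ZT2, the largest difference between replicates of all genes with a mean of at least 50 CPM. SerT (the serotonin transporter) had 1.51 and 0 CPM at ZT14, against 0.124 and 43.6 CPM at ZT2, so that ZT2 R2 was at the top and ZT2 R1 near 0 for both genes. Genes of common transmitters were closer together. The choline acetyltransferase gene ChAT had 501 and 442 CPM at ZT14, against 451 and 432 CPM at ZT2, and the glutamate decarboxylase gene Gad1 had 1098 and 1248 CPM at ZT14, against 855 and 1495 CPM at ZT2. The glutamate transporter gene VGlut had 628 and 519 CPM at ZT14, against 351 and 562 CPM at ZT2.

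Peptides showed the same kind of spread. Of the 21 precursors tested, 15 differed more than 2-fold between replicates of ZT14 or ZT2 (71.4%), against 3464 of all 7671 genes tested (45.2%), although their median level was higher, 96.7 CPM against 60.0 CPM. The figures were 3 of 20 for synaptic vesicle genes, which were at a median of 823 CPM, and 5 of 84 for ribosomal proteins (5.95%), which were at a median of 173 CPM. FMRFa had 334 and 12.6 CPM at ZT14, against 40.1 and 0.473 CPM at ZT2, and Mip, the myoinhibitory peptide precursor, had 0 and 13.2 CPM at ZT14, against 39.5 and 173 CPM at ZT2. Dh31, a precursor known to act in the timing of sleep, had 267 and 1263 CPM at ZT14, against 903 and 842 CPM at ZT2.

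**Figure D5:**
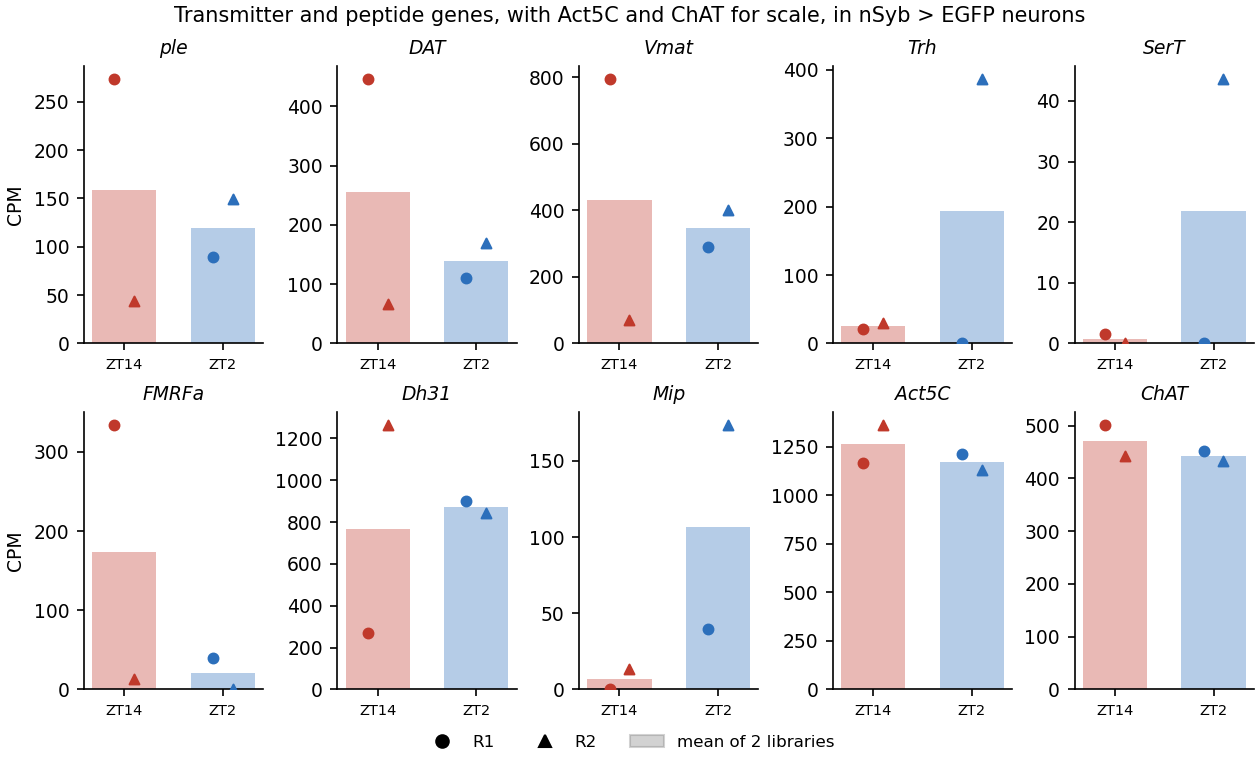
CPM of monoamine (ple, DAT, Vmat, Trh, SerT) and peptide (FMRFa, Dh31, Mip) genes, with Act5C and ChAT for scale, in the nSyb libraries at ZT14 (red) and ZT2 (blue), where circles are R1, triangles are R2 and bars are the mean of the 2. R1 is above R2 at ZT14 for ple, DAT and Vmat and R2 is above R1 at ZT2 for Trh and SerT, while ChAT stays between 432 and 501 CPM.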

How the data were processed

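The deposited tables give raw read counts per gene, which the authors made with STAR on dm6 after removing PCR duplicates with Picard, per the labels and methods. The counting program, its use of strand and the annotation release are not given in the sources used here. The deposited RPM, RPKM and length columns were not used. Reads outside annotated genes (between 7.55% and 8.94% of an nSyb library) and reads on more than 1 gene (5.83% to 6.10%) were left out of totals and tests.

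Counts of nSyb ZT14 and ZT2 libraries were compared by the edgeR (4.0.16, R 4.3.3) quasi-likelihood test without a covariate, after TMM scaling and a filterByExpr cutoff of 10 reads, and Benjamini-Hochberg adjustment at 0.05 over all genes tested. The interaction with clk856 was fitted over all 8 libraries. Intervals are 95% from the same fit. CPM is without TMM scaling. Log2 CPM differences between libraries used a prior count of 2. Folds against a time point with at most 3 reads in each library set the mean CPM of the other time point against 3 reads (0.355 to 0.376 CPM). They are lower bounds on the ratio of means and cover counting error only. An exact permutation test of 2 against 2 cannot go below p = 0.333 and was not used. The quasi-likelihood test was also run on simulated counts. The number of set changes that it called was checked only at a spread lower than that of these libraries. At the spread of these libraries only the sign of the changes was checked. The number called at the spread of these libraries was calculated but is not reported here. How many changes the test would miss in these libraries is therefore not given.

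The libraries, gene lists and rules were chosen with earlier results of these data known. Named genes were the 10 of lowest p in each direction among genes whose time points did not overlap, the 8 core clock genes, the 3 of lowest p and the most abundant of each list, the 10 with the largest replicate difference above a mean of 50 CPM and the 10 most abundant. Further members of the lists were chosen after their values were seen. Among them were CG8910, kay, sr, Dop1R1, ple, DAT, Vmat, Ddc, ChAT, FMRFa, Mip, Tk, Proc, Act5C and the Hsp70 copies. Alternatives were RLE or library size scaling, other filters, the likelihood ratio and exact tests, DESeq2 1.42.0, all 8 libraries in one fit, the replicate number as a block, and leaving out each library. Positions are from Ensembl BDGP6.54, for 17772 of 17868 genes. Promoter motifs were not analysed here. Calculations outside R used Python 3.11.15.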

Additional observations from a re-analysis of the deposited data

Results flagged for a closer look

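Hsp68 was the only gene called when the difference of the time effects between the pools was tested with the edgeR quasi-likelihood test. The number of genes called depended on the setting, as given below. By that test Hsp68 was called in neither pool fitted alone. In nSyb libraries it had 127 and 114 CPM at ZT14, against 32.6 and 32.3 CPM at ZT2, while in clk856 libraries it had 347 and 407 CPM at ZT14, against 747 and 865 CPM at ZT2. The difference of the log2 fold changes, nSyb minus clk856, was 3.01 (adjusted p 0.0119, edgeR interaction test). With the replicate number as a block Hsp68 was not called (adjusted p 0.159, edgeR). Its level was higher in every clk856 library than in any nSyb library. The call was lost without clk856 ZT2 R1, clk856 ZT2 R2 or clk856 ZT14 R1, with adjusted p between 0.0616 and 0.124 (edgeR), and was kept without any 1 of the other libraries (0.0149 to 0.0499).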

How the results depend on the processing

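The 0 calls between ZT14 and ZT2 became 6 with the likelihood ratio test (CG13775, CG15082, Crz, GlnRS, SCOT and Ugt35B1), 2 with the exact test, 224 with DESeq2 and 1 with all 8 libraries in one fit (Hsp68). The unadjusted count was 303. Leaving out 1 library gave between 0 and 1 calls, the 1 being Dh44 without nSyb ZT14 R1, where ZT14 R2 is assumed to vary like the ZT2 pair. Other scalings and filters gave 0. Among list members, the 0 calls became 2 with the likelihood ratio test, 1 with the exact test, 11 with DESeq2, 1 with all 8 libraries, and between 0 and 1 without a library. The biological coefficient of variation of 0.795 was 0.977 without a filter, 0.416 with at least 10 reads in every library, and 0.881 to 0.935 without a library. The number of genes with 0 reads in one replicate and at least 50 CPM in the other, 32, was 300 at 20 CPM and 2 at 100 CPM, both added after the data were seen.

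The 1 interaction call became 98 without a filter, 85 with the likelihood ratio test, 178 with DESeq2, and between 0 and 85 without a library, the 85 being without nSyb ZT2 R2. With the replicate number as a block it became 0, where Hsp68 had an adjusted p of 0.159 (edgeR). The block left the time comparison at 0 calls. The deviations of same-numbered libraries had a correlation of 0.02 across genes in nSyb and of 0.03 in clk856, and the labels give the libraries no more than a shared number.

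The sign of the log2 fold change turned for IA-2 (0.00841 with library size only, 0.015 with at least 10 reads in every library, 0.011 with all 8 libraries) and, with the replicate block, for per (0.080), Trh (0.22), Gad1 (0.041) and mrn (1.97). Without 1 library it turned for 27 of 116 named genes, none of them called. For these the range was -1.69 to 1.93 for per, -1.07 to 1.99 for tim, -2.01 to 0.56 for cry, -0.45 to 0.052 for gish, -0.0051 to 0.097 for mts, -0.23 to 0.49 for Usp8, -0.26 to 0.20 for Slob, -0.20 to 0.16 for Sh, -1.70 to 0.53 for Dh31, -3.95 to 7.54 for Trh, -0.00032 to 0.73 for VGlut, -0.38 to 0.48 for Gad1, -0.073 to 0.17 for nAChRbeta1, -0.020 to 0.15 for cpx, -0.10 to 0.16 for COX1, -0.11 to 0.49 for alphaTub84B, -0.38 to 12.05 for CG9272, -0.77 to 7.86 for amx, -0.38 to 7.97 for CG32100, -1.36 to 5.86 for mrn, -6.41 to 0.51 for CG15141, -7.01 to 0.081 for CG13229, -6.80 to 0.033 for Rnmt, -0.054 to 0.064 for IA-2, -0.081 to 0.17 for lncRNA:roX1, -0.11 to 0.21 for nrv3 and -0.021 to 0.068 for Argk. Where the library left in had at most 3 reads, the far end of the range depends on the prior count. This was so at ZT2 for CG9272, amx, CG32100 and Trh. The differences of time effects ranged from -0.34 to 4.78 for Clk, -2.62 to 0.98 for per, -6.01 to 1.11 for vri and -1.37 to 1.20 for cry. For Clk, with at most 2 reads in any nSyb library, they depend on the prior count as well. The promoter motif was not analysed here, since no sequence was used. Depth was similar in the 4 libraries, and precision was limited by the spread between replicates, which is lowest above 300 CPM.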
